A study of Mus musculus with 4 samples.

Results

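The genes described here are 9 members of the Hedgehog pathway in the mouse kidney medulla: the ligands Shh, Ihh and Dhh, the receptor Ptch1, the signal transducer Smo, the transcription factors Gli1, Gli2 and Gli3, and the ligand-binding inhibitor Hhip. They were given as a list of names and looked up by Entrez gene ID in the deposited table of 27179 genes. All 9 were found, and all 9 passed the filter on low values that 16253 genes passed, a mean normalized count of 10 or more. The study sequenced mRNA from the medulla of 2 Actr3 knockout animals (genotype Actr3-fl/fl*Cdh16-Cre) and 2 wild type controls (Actr3 WT), all at postnatal day 14 and on a mixed C57BL/6 background. Actr3 encodes Arp3, which belongs to the Arp2/3 actin-nucleating complex. Cdh16 is the kidney-specific cadherin, so its promoter places Cre in tubule epithelium and not in the stroma, where much of the Hedgehog response of the developing kidney takes place. The labels do not say whether the controls carried floxed alleles or Cre.

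Hedgehog ligands are secreted, lipid-modified proteins. In the absence of ligand, Ptch1 holds Smo inactive and Gli3 and part of Gli2 are processed to repressors; when ligand binds Ptch1, Smo moves into the primary cilium and full-length Gli2 and Gli3 activate target genes. Gli1, Ptch1 and Hhip are themselves classical targets, so their transcripts are widely used as readouts of the pathway. In the developing mouse kidney Shh comes from the epithelium of the distal collecting ducts and the ureter, and the surrounding mesenchyme responds. In the adult mouse kidney Gli1 marks perivascular cells of the stroma that can become myofibroblasts.

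Between 36482238 and 40784436 reads per library stood behind the values. The transcript of the targeted gene was more abundant under the knockout label: its normalized read count was 12587 and 12480 in the libraries so labelled, against 8065 and 7275 in those labelled wild type, which is 0.71 on the log2 scale with SE 0.082 (adjusted p = 0.000494 by limma). A count over the whole gene does not show whether an exon was deleted, so it is no check of the deletion. The libraries are therefore called KO-labelled and WT-labelled below, and every direction rests on those labels. Defining transcripts of the medulla were present in all 4 libraries: the 10 genes used for this check, among them Slc12a1, Umod, Aqp2 and Aqp3, summed to 312183 and 218479 normalized counts in KO-labelled and 595483 and 635159 in WT-labelled medullas, and none of them was at 0. By the test described below, 9 of the 10 were lower (median log2 difference -2.2), against 24.9% of all tested genes. The exception was Umod, with 203681 and 138033 in KO-labelled against 136828 and 143709 in WT-labelled medullas. It makes up the largest part of the KO-labelled sums. Whether the dissections were alike was not tested.

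Of the 9 members, 4 rose in the KO-labelled medulla (Gli2, Gli3, Ihh and Smo) and 2 fell (Ptch1 and Dhh), while Gli1, Shh and Hhip did not pass the test. Across all genes tested 51.2% were called, 26.3% higher and 24.9% lower, so 6 calls among 9 members have to be read against a transcriptome in which about every other gene was called. The median log2 difference was 0.35 over the 9 members and 0.003 over all tested genes. A call here means an adjusted p under 0.05 from limma, and each difference subtracts the WT-labelled from the KO-labelled mean of log2(normalized count + 1), which understates the change of low genes.

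For the 4 members with the largest called differences whose promoters the RefSeq table (GRCm38.p6) holds, the 250 bases before the start site in that table are shown, since Gli2 and Gli3 rose together while Ptch1 and Dhh fell. Each runs 5′ to 3′ on the gene's own strand, and capitals mark CG dinucleotides. The stretches are chr1:119053620-119053869 on the minus strand for Gli2, chr13:15463473-15463722 on the plus strand for Gli3, chr13:63565736-63565985 on the minus strand for Ptch1 and chr15:98898541-98898790 on the minus strand for Dhh.
Gli2: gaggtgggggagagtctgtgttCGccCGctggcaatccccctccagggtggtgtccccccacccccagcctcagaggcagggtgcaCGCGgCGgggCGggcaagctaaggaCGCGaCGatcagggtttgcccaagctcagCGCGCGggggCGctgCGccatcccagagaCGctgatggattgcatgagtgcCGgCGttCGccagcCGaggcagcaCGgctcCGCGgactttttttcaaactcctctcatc
Gli3: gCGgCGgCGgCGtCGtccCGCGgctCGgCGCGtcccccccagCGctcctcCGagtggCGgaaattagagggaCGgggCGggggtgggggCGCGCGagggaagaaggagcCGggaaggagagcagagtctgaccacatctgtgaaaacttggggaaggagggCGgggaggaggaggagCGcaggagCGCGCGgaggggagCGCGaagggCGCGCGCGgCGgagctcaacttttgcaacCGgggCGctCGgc
Ptch1: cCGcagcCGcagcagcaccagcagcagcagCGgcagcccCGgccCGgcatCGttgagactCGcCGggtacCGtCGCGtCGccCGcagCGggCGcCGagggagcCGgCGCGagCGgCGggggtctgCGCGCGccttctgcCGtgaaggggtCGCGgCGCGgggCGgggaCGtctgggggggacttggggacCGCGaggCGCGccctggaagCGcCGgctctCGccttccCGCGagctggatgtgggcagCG
Dhh: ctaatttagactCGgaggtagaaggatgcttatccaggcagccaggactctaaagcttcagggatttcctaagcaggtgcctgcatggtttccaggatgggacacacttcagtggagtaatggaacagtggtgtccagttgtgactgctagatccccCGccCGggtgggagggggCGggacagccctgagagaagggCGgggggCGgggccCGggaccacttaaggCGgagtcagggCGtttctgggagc

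The windows of Ptch1, Gli3 and Gli2 are rich in CG dinucleotides, with 41, 34 and 22 of them and a G+C content of 78.4%, 72.8% and 67.2%. The window of Dhh has 9 and 59.6%. Over the 32851 promoter windows of the table the medians are 6 CG dinucleotides and 52.4% G+C. The consensus that Gli proteins bind, GACCACCCA on either strand, is in none of the 7 member windows that the table holds (those 4 and Ihh, Smo and Hhip) and in 0.225% of all windows; this says only that these letters are not in these 250 bases. For Gli2, Ptch1, Dhh and Hhip the start site used lies inside the annotated span of the gene, and other start sites were not searched.

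**Figure D1:**
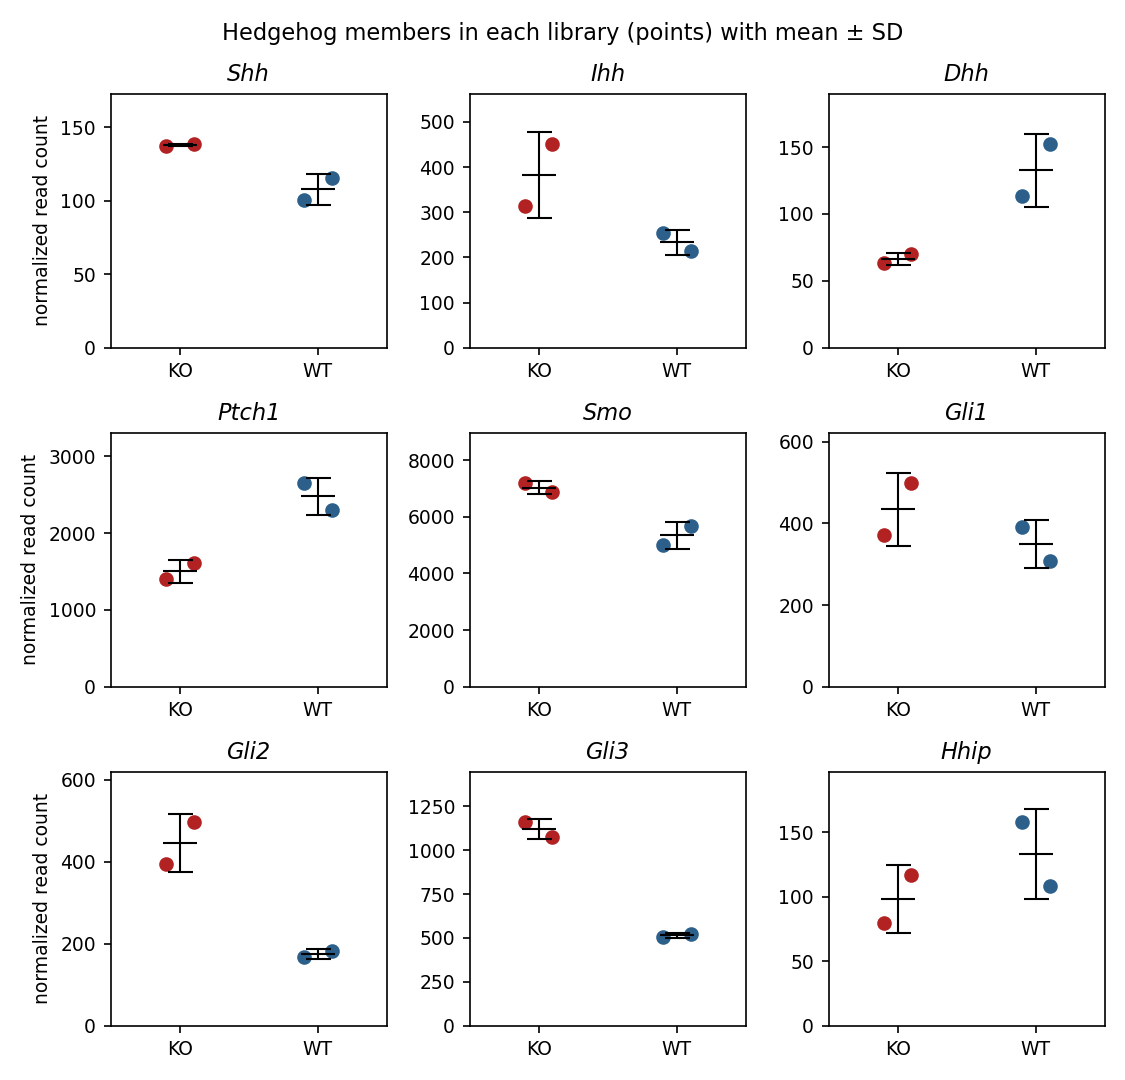
Normalized read count (vertical axis, from 0) of each Hedgehog member in the 2 KO-labelled medullas (red points, left) and the 2 WT-labelled medullas (blue points, right), with the mean ± SD as black bars. Both KO-labelled values lie above both WT-labelled values for Gli2 (395 and 496 in KO-labelled against 166 and 183 in WT-labelled medullas) and Gli3, both lie below for Ptch1 and Dhh, and the groups overlap for Gli1 and Hhip.

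The ligands went different ways. Ihh, best known from cartilage growth plates and gut epithelium, had normalized counts of 314 and 450 in KO-labelled medullas and 253 and 214 in the WT-labelled ones. The groups did not overlap, but the KO-labelled medullas lay further from each other than the lower of them lay from the WT-labelled medullas. The means were 382 ± 96.2 for KO-labelled and 233 ± 27.9 for WT-labelled medullas (SD, n = 2 each), a 1.64-fold higher mean (log2 difference 0.69 with SE 0.21, adjusted p = 0.0313 by limma). Leaving out WT replicate 1 (adjusted p = 0.0609), WT replicate 2 (0.14) or KO replicate 2 (log2 difference 0.43, adjusted p = 0.174) ended this call. It was also lost with no filter (0.0551), after quantile normalization (0.0591) and with no variance trend (0.0748). Its adjusted p ranged from 0.0118 to 0.174 over the 15 alternatives.

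Dhh, the ligand of Schwann cells and of Sertoli cells in the testis, had 63.3 and 69.7 in KO-labelled medullas against 113 and 152 in the WT-labelled ones. Both KO-labelled values lay below both WT-labelled values, and the counts were low in every library, between 59 and 153 reads before normalization. The means were 66.5 ± 4.55 for KO-labelled and 133 ± 27.4 for WT-labelled medullas (SD, n = 2 each), a 2.00-fold lower mean (log2 difference -0.97 with SE 0.25, adjusted p = 0.016 by limma). Leaving out WT replicate 2 ended the call (log2 difference -0.76, adjusted p = 0.0996), and so did leaving out KO replicate 1 (-0.90, adjusted p = 0.0567). Its highest adjusted p over the alternatives was that 0.0996, and its lowest was 0.00916. In the GENCODE annotation Dhh shares 546 exon bases with Rhebl1 on the same strand, which had 196 and 113 in KO-labelled against 167 and 138 in WT-labelled medullas (log2 difference -0.03, adjusted p = 0.94), so the share of reads that each gene received is uncertain. Dhh also shares 1107 exon bases with Gm49442 on the opposite strand, which has no row under that name among the deposited genes. The part of Gm49442 reads in the values of Dhh was not tested.

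Shh, the ligand of the collecting duct epithelium, had 137 and 138 in KO-labelled medullas and 100 and 115 in the WT-labelled ones. The groups did not overlap, yet the difference of 0.35 on the log2 scale (SE 0.21, adjusted p = 0.194 by limma) did not pass the test, with a 95% interval of -0.14 to 0.85. None of the 15 alternatives called it. In GENCODE, Shh shares 446 exon bases with 9530036O11Rik on the opposite strand, which had 4.29 and 3.77 in KO-labelled against 0.985 and 6.96 in WT-labelled medullas and was too low to be tested. Markers of principal cells of the collecting duct were lower in the same libraries: 9 of 14 fell, their summed counts were 28977 to 36460 in KO-labelled and 77732 to 94051 in WT-labelled medullas, and none was at 0. Over all tested genes 24.9% were lower. Aqp2, the apical water channel, had a log2 difference of -2.45 (adjusted p = 0.000116). The other 5 of the 14 markers did not pass, among them the transcription factor Gata3 at 0.05 (adjusted p = 0.783 by limma). The part of these markers in the values of Shh was not tested. In bulk tissue, fewer cells of a type and less RNA per cell cannot be told apart, here or for any gene below.

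Measured per kb of exon, Ihh was the highest of the ligands in all 4 libraries, at 103 and 148 normalized counts per kb in the KO-labelled and 83.0 and 70.1 in WT-labelled medullas. Its share of the summed per-kb level of the 3 ligands was 62.2% and 69.6% in KO-labelled medullas against 57.6% and 48.3% in the WT-labelled ones. The share of Dhh was 8.68% and 7.47% in KO-labelled against 17.9% and 23.8% in WT-labelled medullas. The share of Shh overlapped between the groups, at 29.1% and 22.9% in KO-labelled against 24.5% and 27.9% in WT-labelled medullas. Summed over the 3 ligands, the level was 166 and 212 counts per kb in KO-labelled and 144 and 145 in WT-labelled medullas.

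At the receptor level, the inhibitory receptor fell and the transducer rose. Ptch1, which binds the ligands and holds Smo inactive, had normalized counts of 1399 and 1605 in KO-labelled medullas and 2648 and 2306 in the WT-labelled ones. Every KO-labelled value was below every WT-labelled one, by more than either group's own spread. The means were 1502 ± 146 for KO-labelled and 2477 ± 242 for WT-labelled medullas (SD, n = 2 each), a 1.65-fold lower mean (log2 difference -0.72 with SE 0.11, adjusted p = 0.00176 by limma). All 15 alternatives called it lower, with log2 differences of -0.82 to -0.62 and adjusted p of 8.86e-07 to 0.0208.

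Smo, the 7-pass membrane protein that carries the signal inward, had 7179 and 6863 in KO-labelled medullas against 5011 and 5676 in the WT-labelled ones. The groups did not overlap. The means were 7021 ± 223 for KO-labelled and 5344 ± 470 for WT-labelled medullas (SD, n = 2 each), a 1.31-fold higher mean (log2 difference 0.40 with SE 0.088, adjusted p = 0.00862 by limma). The call held in 14 of 15 alternatives and was lost with no variance trend (adjusted p = 0.0519). The ratio of Smo to Ptch1 counts was 5.13 and 4.28 in the KO-labelled and 1.89 and 2.46 in WT-labelled medullas. For such a ratio of single genes, 2 libraries against 2 give an exact two-sided permutation test no p below 0.333, which is the value found (log2 difference 1.12).

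**Figure D2:**
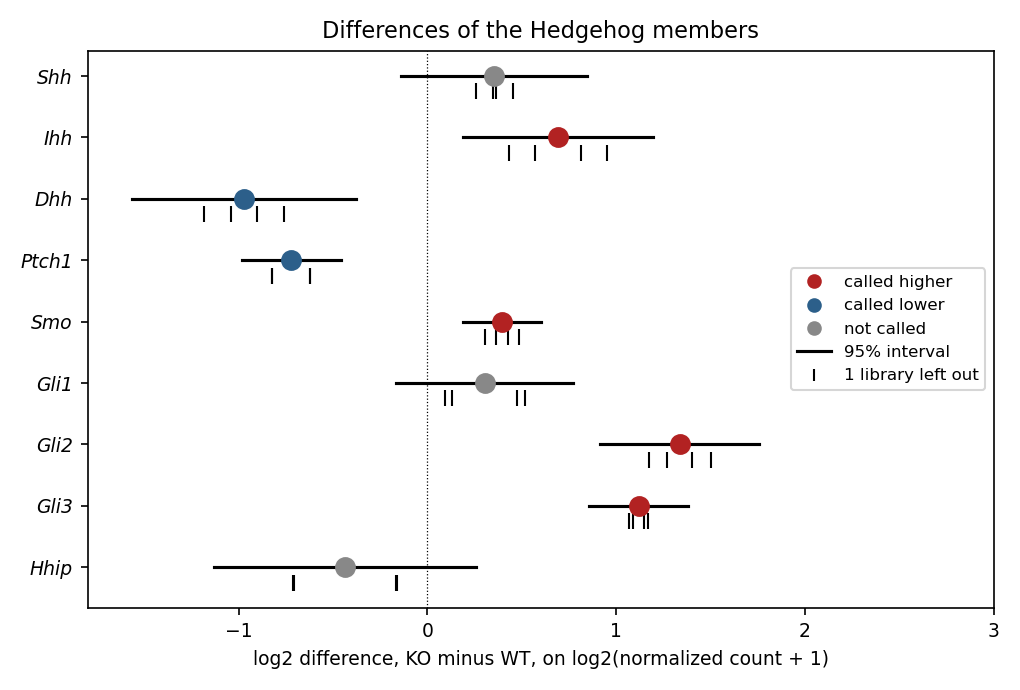
Log2 difference of each Hedgehog member (horizontal axis, KO-labelled minus WT-labelled, on log2 of normalized count + 1) with its 95% interval from limma as a line, and the differences with 1 library left out as ticks below it. Red points were called higher, blue lower and grey not called. Gli2 and Gli3 lie at 1.34 and 1.12, Ptch1 and Dhh at -0.72 and -0.97, and the intervals of Shh, Gli1 and Hhip include 0.

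Among the transcription factors, the 2 that carry both activator and repressor forms rose, and the one that is only an activator did not pass the test. Read counts of a gene do not show how much of its protein was full-length or processed to a repressor. Gli2, the main activator of the mouse pathway, had normalized counts of 395 and 496 in KO-labelled medullas and 166 and 183 in the WT-labelled ones. The lower KO-labelled value was above the higher WT-labelled value by more than the spread within either group. The means were 445 ± 71.3 for KO-labelled and 175 ± 11.6 for WT-labelled medullas (SD, n = 2 each), a 2.55-fold higher mean (log2 difference 1.34 with SE 0.18, adjusted p = 0.000927 by limma). It was the largest difference among the 9 members, and all 15 alternatives called it (adjusted p 1.18e-07 to 0.00847).

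Gli3, the main repressor of the pathway when ligand is absent, had 1159 and 1079 in KO-labelled medullas against 504 and 525 in the WT-labelled ones. Again the groups were far apart relative to their spread. The means were 1119 ± 57.1 for KO-labelled and 515 ± 14.5 for WT-labelled medullas (SD, n = 2 each), a 2.17-fold higher mean (log2 difference 1.12 with SE 0.11, adjusted p = 0.000251 by limma), with 1.07 to 1.17 and adjusted p of 9.1e-13 to 0.00462 over the 15 alternatives. The ratio of Gli3 to Gli2 counts overlapped between the groups, at 2.94 and 2.18 in the KO-labelled and 3.03 and 2.87 in WT-labelled medullas.

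Gli1, the target gene that amplifies the response, had 371 and 498 in KO-labelled medullas and 392 and 309 in the WT-labelled ones. The groups overlapped, since the lower KO-labelled value was below the higher WT-labelled value. The log2 difference was 0.30 (SE 0.20, adjusted p = 0.237 by limma), with a 95% interval of -0.16 to 0.77, and no alternative called it (adjusted p 0.0989 to 0.773). In GENCODE, Gli1 shares 62 exon bases with Arhgap9 on the opposite strand, a gene that rose to 294 and 380 in KO-labelled medullas, against 108 and 99.4 in the WT-labelled ones (log2 difference 1.68, adjusted p = 0.000601). Gli1 also shares 265 exon bases with Gm47200 on the opposite strand, which has no row under that name among the deposited genes. Whether counting used the strand is not given in the sources used here, and the part of Arhgap9 or Gm47200 reads in the values of Gli1 was not tested.

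As a share of the per-kb level of the 3 Gli genes together, Gli1 held 29.4% and 35.1% in the KO-labelled and 50.5% and 43.2% in WT-labelled medullas. Gli2 held 22.7% and 25.4% in KO-labelled against 15.6% and 18.6% in WT-labelled medullas, and Gli3 held 47.9% and 39.6% in KO-labelled against 33.9% and 38.2% in WT-labelled medullas. Shares add to the same total, so a fall of one goes with a rise of the others. The summed level was 253 and 284 counts per kb in KO-labelled medullas and 155 and 143 in the WT-labelled ones.

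The 3 classical readouts of the pathway gave 3 different values. Ptch1 fell (log2 difference -0.72), Gli1 had 0.30 and did not pass, and Hhip, the membrane-bound inhibitor that sequesters ligand, had -0.44 and did not pass. Hhip read 79.4 and 117 in KO-labelled medullas and 158 and 108 in the WT-labelled ones, so the groups overlapped (SE 0.29, adjusted p = 0.249 by limma, 95% interval -1.13 to 0.26). It was a low gene, with 74 to 160 reads per library. The ratio of Gli1 to Ptch1 counts was 0.265 and 0.31 in the KO-labelled and 0.148 and 0.134 in WT-labelled medullas, a log2 difference of 1.03 (exact two-sided permutation test, p = 0.333, the smallest this design allows).

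**Figure D3:**
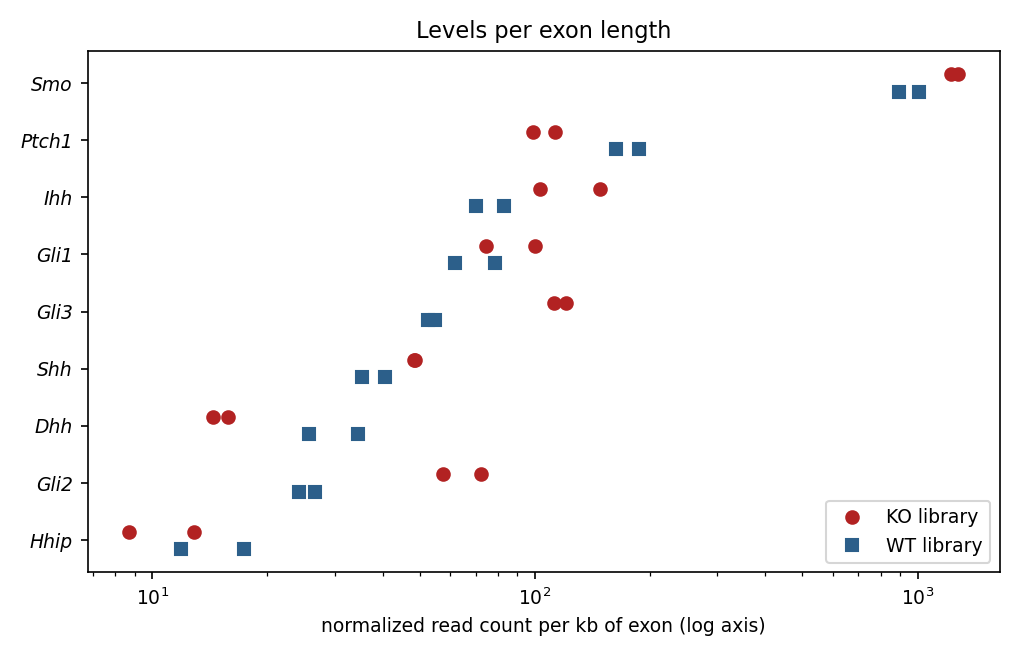
Normalized read count per kb of exon (horizontal log axis) of each Hedgehog member in each KO-labelled library (red circles, upper) and WT-labelled library (blue squares, lower), ordered by the WT-labelled mean. Smo stands apart at 892 to 1277 counts per kb, and Gli2 and Gli3 are the genes whose place in the order moved up most.

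Per kb of exon, the order of the members in KO-labelled medullas was Smo, Ihh, Gli3, Ptch1, Gli1, Gli2, Shh, Dhh and Hhip, with means from 1250 down to 10.8 counts per kb. In the WT-labelled medullas it was Smo, Ptch1, Ihh, Gli1, Gli3, Shh, Dhh, Gli2 and Hhip, from 951 down to 14.6. Smo was above the per-kb level of 89.4% of tested genes in the KO-labelled and 84.8% in WT-labelled medullas, whereas each of the others was below the median gene in both groups. Neighbours in these orders often overlapped: among the KO-labelled values Ihh, Gli3 and Ptch1 overlapped (103 to 148, 112 to 121 and 98.6 to 113 counts per kb), as did Ptch1 and Gli1 (74.3 to 99.8), and in WT-labelled medullas those of Ihh and Gli1 (70.1 to 83.0 and 61.9 to 78.5) and of Dhh and Gli2 did (25.7 to 34.6 and 24.2 to 26.6). Exon lengths came from GENCODE and ranged from 2.85 kb for Shh to 14.18 kb for Ptch1, while the annotation used for counting is not given in the sources used here.

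In GRCm38 coordinates from RefSeq, Gli2 (Entrez 14633) lies on chromosome 1 from 118834061 to 119054405 and Ihh (16147) on the same chromosome from 74945315 to 74951672. Ptch1 (19206) and Gli3 (14634) share chromosome 13, from 63508328 to 63573460 and from 15463723 to 15730026. Shh (20423) is on chromosome 5 from 28456840 to 28467101, Smo (319757) on chromosome 6 from 29735497 to 29761366, and Hhip (15245) on chromosome 8 from 79965850 to 80058060. Gli1 (14632) is on chromosome 10 from 127329882 to 127341579, and Dhh (13363) on chromosome 15 from 98881615 to 98898562. On chromosome 13 Ptch1 fell and Gli3 rose.

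Beyond the 9 members, 78 other genes of the pathway were examined in 5 lists by role, of which 74 were tested. Of these, 21 rose, 14 fell and 39 did not pass, against the 26.3% higher and 24.9% lower of all tested genes.

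Among 8 genes of ligand processing and release, 7 were tested, as Disp3 was too low. Of these, 2 rose and 2 fell, with a median log2 difference of -0.05, against 26.3% higher and 24.9% lower over all tested genes. Scube2, a secreted protein that helps release lipid-modified ligand, fell to 309 and 380 in KO-labelled medullas, against 613 and 652 in the WT-labelled ones (log2 difference -0.88, adjusted p = 0.00281 by limma). Hhat, the acyltransferase that attaches palmitate to the ligands, and Disp1, the transporter that exports them, had log2 differences of 0.52 and 0.73 (adjusted p = 0.0225 and 0.0397). These were the 2 rises, and neither passed when WT replicate 1 (adjusted p = 0.102 and 0.114), KO replicate 1 (0.0813 and 0.0771) or KO replicate 2 (0.0669 and 0.0869) was left out. Hhatl, a relative of Hhat, had a log2 difference of -2.49 from low counts of 3.22 and 2.83 in KO-labelled against 12.8 and 35.8 in WT-labelled medullas, which did not pass once WT replicate 2 was left out (-1.78, adjusted p = 0.0745) and was not tested at a mean of 50 or more. With no variance trend neither Hhat (0.0503) nor Disp1 (0.118) passed, and Disp1 was also lost with no filter (0.0759) and by edgeR (0.0527).

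Of 10 co-receptors and surface modulators, 4 rose and 2 fell, with a median of 0.15, against 26.3% higher and 24.9% lower over all tested genes. Ligand-binding co-receptors did not move as a block. Cdon rose to 3149 and 3337 in KO-labelled medullas, against 2249 and 2562 in the WT-labelled ones (log2 difference 0.43, adjusted p = 0.00781 by limma), whereas Gas1 fell to 4184 and 4815 in KO-labelled against 5856 and 7298 in WT-labelled medullas (-0.54, adjusted p = 0.00972). Boc, with 1452 and 1396 in KO-labelled against 1456 and 2070 in WT-labelled medullas, did not pass (-0.29, adjusted p = 0.178), but was called lower without WT replicate 1 (-0.54, adjusted p = 0.0122). The glypican Gpc6, a heparan sulfate proteoglycan, rose most, to 5748 and 7114 in KO-labelled against 2654 and 2539 in WT-labelled medullas (1.30, adjusted p = 0.000136). Gpc4 and Gpc3, of which Gpc3 is known in the mouse as an inhibitor of Hedgehog ligands, had 0.39 and 0.28, and both calls were lost without KO replicate 2 (adjusted p = 0.0583 and 0.286). Gpc3, at an adjusted p of 0.0496, also lost its call without either WT-labelled replicate (0.198 and 0.0615) and with the replicate block (0.0555). Without KO replicate 2 the list had 2 rises, and without WT replicate 2 it had 1 fall. With no variance trend it had 2 rises and no fall, as Gas1 (adjusted p = 0.0613), Lrp2 (0.0741), Gpc4 (0.0512) and Gpc3 (0.143) were lost, and with a robust variance trend it had 1 fall, as Lrp2 was lost (0.0697). Gpc3 was also lost with a pseudocount of 0.5 (0.0505), with no filter (0.0787) and by edgeR (0.0599). Lrp2, the large endocytic receptor of proximal tubules, was the other fall, at 4684 and 8073 in KO-labelled against 11888 and 11442 in WT-labelled medullas (-0.92, adjusted p = 0.0123), and lost its call without WT replicate 1 (0.0659) and without WT replicate 2 (0.0532). Proximal tubule markers, a list that includes Lrp2, were lower in the same libraries (9 of 10, or 3 with a robust variance trend, median -2.50, summed counts 24394 to 32005 in KO-labelled against 87029 to 117967 in WT-labelled medullas), and their part in this value was not tested.

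Most cytoplasmic regulators did not pass the test. Of 21, 14 did not pass, 6 rose and 1 fell, with a median of 0.15, against 26.3% higher and 24.9% lower over all tested genes. Sufu, which retains Gli proteins in the cytoplasm, had 798 and 759 in KO-labelled and 805 and 809 in WT-labelled medullas (log2 difference -0.05, adjusted p = 0.705 by limma), and Kif7, the ciliary kinesin that regulates Gli proteins, 0.21 (adjusted p = 0.201). Spop and Cul3, parts of a ubiquitin ligase that degrades Gli2 and Gli3, had -0.07 and -0.02 and did not pass. Evc, which relays the signal of Smo at the base of the cilium, rose to 4378 and 4510 in KO-labelled against 2891 and 3245 in WT-labelled medullas (0.54, adjusted p = 0.00218), while its partner Evc2 had 0.23 (adjusted p = 0.0741). Arrb2, a beta-arrestin that helps Smo into the cilium, rose to 1316 and 1259 in KO-labelled against 654 and 684 in WT-labelled medullas (0.94, adjusted p = 0.000365). Gpr161, a ciliary receptor that keeps the pathway off, rose to 291 and 327 in KO-labelled against 168 and 192 in WT-labelled medullas (0.77, adjusted p = 0.00907), a call lost without KO replicate 2 (adjusted p = 0.051). Fem1b, Csnk1d and Prkacb completed the rises with 0.41, 0.34 and 0.25; the call of Csnk1d was lost without KO replicate 1 (adjusted p = 0.0552), and that of Prkacb without WT replicate 2 (0.135), KO replicate 1 (0.119) and KO replicate 2 (0.144), with the replicate block (0.0809) and with no variance trend (0.108). Ulk3, a kinase of Gli proteins, was the fall (-0.47, adjusted p = 0.0121), lost without WT replicate 1 (0.0663) and without KO replicate 2 (0.0591), which leaves the list with no fall.

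Of 22 genes of cilium assembly and transport, 13 did not pass, 4 rose and 5 fell, with a median of 0.11. Over all tested genes 26.3% were higher and 24.9% lower. Inpp5e, a ciliary phosphatase that keeps Gpr161 out of the cilium, fell to 1404 and 1310 in KO-labelled medullas, against 2318 and 2379 in the WT-labelled ones (log2 difference -0.79, adjusted p = 0.000398 by limma). Arl13b, the GTPase that brings Inpp5e into cilia, rose to 1539 and 1638 in KO-labelled against 1021 and 1011 in WT-labelled medullas (0.64, adjusted p = 0.00134). Ift80 and Bbs1 fell by log2 differences of -0.71 and -0.56, and Ift81 and Dync2li1 rose by 0.51 and 0.43. Ift88 and Kif3a, which cilia need in order to form, had -0.09 and 0.13 and did not pass. Ift122, Ift172 and Ift57 were the other calls (-0.36, -0.35 and 0.37). Without KO replicate 1 all 3 of these were lost (adjusted p = 0.0815, 0.0502 and 0.223), which leaves 3 falls, and without WT replicate 2 Ift122 and Ift57 were (0.0667 and 0.215). Both were also lost with no variance trend (0.0607 and 0.129), and Ift57 with no filter (0.0799) and after quantile normalization (0.0536).

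Other reported Gli targets went both ways. Of 18, 15 were tested, 5 rose, 4 fell and 6 did not pass, with a median of 0.12. Over all tested genes 26.3% were higher and 24.9% lower. The falls were Ccnd1, cyclin D1, at 9798 and 9386 in KO-labelled medullas against 19321 and 22475 in the WT-labelled ones (log2 difference -1.12, adjusted p = 0.000135 by limma), Bmp4, a mesenchymal growth factor, at 1369 and 1668 in KO-labelled against 2483 and 2982 in WT-labelled medullas (-0.85, adjusted p = 0.00185), Foxc2 (-0.68, adjusted p = 0.00845) and Prdm1 (-0.78, adjusted p = 0.0112), of which Prdm1 was lost without WT replicate 1 (0.0536). Sfrp1, a secreted Wnt antagonist, rose to 31828 and 40231 in KO-labelled against 12588 and 11980 in WT-labelled medullas (1.54, adjusted p = 9.44e-05). Mycn, a proliferation factor, rose to 1014 and 840 in KO-labelled against 627 and 565 in WT-labelled medullas (0.63, adjusted p = 0.00743). Foxf1, a forkhead factor of gut and lung mesenchyme, rose at low counts, with 39.7 and 26.4 in KO-labelled against 3.94 and 5.96 in WT-labelled medullas (2.51, adjusted p = 0.00425). Tshz3, a factor of ureteric smooth muscle, and Foxs1 had 0.55 and 0.60. The call of Tshz3 was lost without WT replicate 1 (adjusted p = 0.062), WT replicate 2 (0.0515) and KO replicate 2 (0.0978), and that of Foxs1 without WT replicate 1 (0.0595), WT replicate 2 (0.142) and KO replicate 1 (0.19), so that 3 rises were left without either WT-labelled replicate. Foxs1 was also lost with no filter (0.0516), after quantile normalization (0.0787) and with no variance trend (0.0513).

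**Figure D4:**
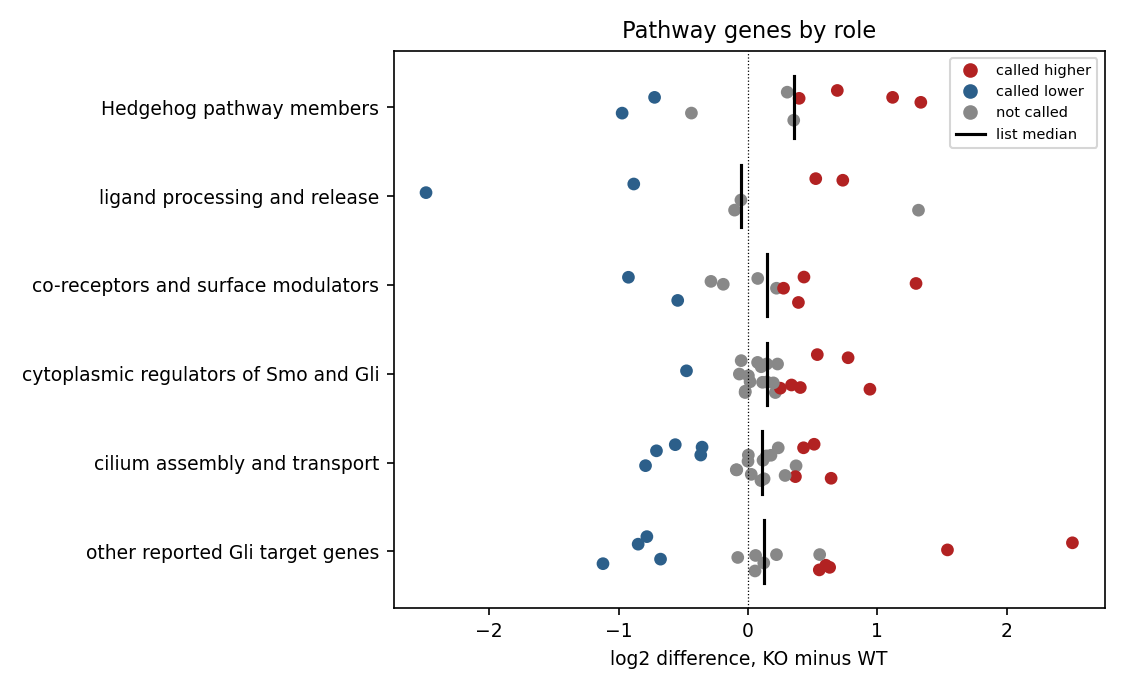
Log2 difference (horizontal axis, KO-labelled minus WT-labelled) of each tested gene of the Hedgehog members and of 5 lists of other pathway genes, 1 point per gene, with the list median as a black bar. Red points were called higher, blue lower and grey not called, and the medians of the 5 other lists lie between -0.05 and 0.15.

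Markers of the cells that send or receive the signal moved in the same libraries. Their counts, here and for the lists below, stand against 26.3% higher and 24.9% lower over all tested genes. Of 20 stroma, fibroblast and pericyte markers, 11 rose, 3 fell and 6 did not pass (median log2 difference 0.77; 1 fall without WT replicate 1 and with no variance trend), and their summed counts were 585402 to 670116 in KO-labelled and 249851 to 257762 in WT-labelled medullas. The largest share of that sum is Col3a1, which encodes collagen III, with 261051 and 308699 in KO-labelled against 93786 and 92680 in WT-labelled medullas (1.61, adjusted p = 0.000127 by limma). The receptor genes that define these cells did not pass: Pdgfra had 21677 and 24965 in KO-labelled against 23124 and 26832 in WT-labelled medullas (-0.10, adjusted p = 0.489), and Pdgfrb 11089 and 10399 in KO-labelled against 9972 and 9582 in WT-labelled medullas (0.14, adjusted p = 0.183). Foxd1, the factor of stromal progenitors, had -0.65 and did not pass, and Tcf21 fell by -0.48 (adjusted p = 0.0111). The other falls were Rgs5 and Fbln5. Rgs5 had 798 and 1025 in KO-labelled against 2476 and 2232 in WT-labelled medullas (-1.38, adjusted p = 0.000253 by limma). Fbln5 had a log2 difference of -0.88 (adjusted p = 0.00982 by limma). Of 10 smooth muscle and myofibroblast markers 7 rose and 1 fell (median 1.72), with summed counts of 43969 to 52171 in KO-labelled against 19468 to 25704 in WT-labelled medullas. None of the markers in these lists was at 0. Gli2 and Gli3, with log2 differences of 1.34 and 1.12, rose beside these lists, and the part of the lists in that rise was not tested.

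Endothelial markers fell as a whole, 12 of 12, with a median of -1.33 and summed counts of 36895 to 38473 in the KO-labelled against 106270 to 108802 in WT-labelled medullas. Dhh and Ptch1 fell in the same libraries. Schwann cell markers went both ways, with 2 higher, 2 lower and 3 not called among 7 tested of 10. Of the defining ones, Sox10 was near 0 (17.2 and 17.0 in KO-labelled against 0 and 1.99 in WT-labelled medullas, not tested). The list had no fall without WT replicate 1 or without WT replicate 2 and 1 without KO replicate 1 or with no variance trend. Its summed counts were 7443 to 8399 in KO-labelled against 4772 to 5013 in WT-labelled medullas. Within the list, Egr2 had 1837 and 1403 in KO-labelled against 24.6 and 31.8 in WT-labelled medullas and Mbp 3164 and 2705 in KO-labelled against 1462 and 1360 in WT-labelled medullas, and both transcripts also occur outside Schwann cells. The part of either list in the values of Dhh and Ptch1 was not tested.

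The other lists set the context of the tissue. Urothelial markers fell (10 of 11 tested, median -1.83, summed counts 1619 to 2204 in the KO-labelled against 7230 to 7561 in WT-labelled medullas), and of 10 thick ascending limb markers 7 fell and 2 rose (median -2.11, 184886 to 263067 in KO-labelled against 500695 to 517910 in WT-labelled medullas; 1 rise with any 1 library left out, with no filter or a mean of 50 or more, with no variance trend, with the replicate block, and by edgeR or DESeq2). The largest share of the KO-labelled thick ascending limb sums is Umod, which did not pass (203681 and 138033 in KO-labelled against 136828 and 143709 in WT-labelled medullas). Injured tubule markers rose (11 of 12, median 3.71, 508608 to 605095 in KO-labelled against 71990 to 79658 in WT-labelled medullas, with 1 fall), as did macrophage and dendritic cell markers (12 of 12, median 2.46, 66964 to 72562 in KO-labelled against 15363 to 18982 in WT-labelled medullas). The largest share of the injured tubule sums is Spp1, with 427510 and 366760 in KO-labelled against 43049 and 46830 in WT-labelled medullas. Of 10 proliferation markers 4 rose (median 0.39, 14183 to 17052 in KO-labelled against 11679 to 12655 in WT-labelled medullas; 2 rises without KO replicate 2). None of the genes of these lists was at 0 in all libraries, and their part in the values of the 9 members was not tested.

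**Figure D5:**
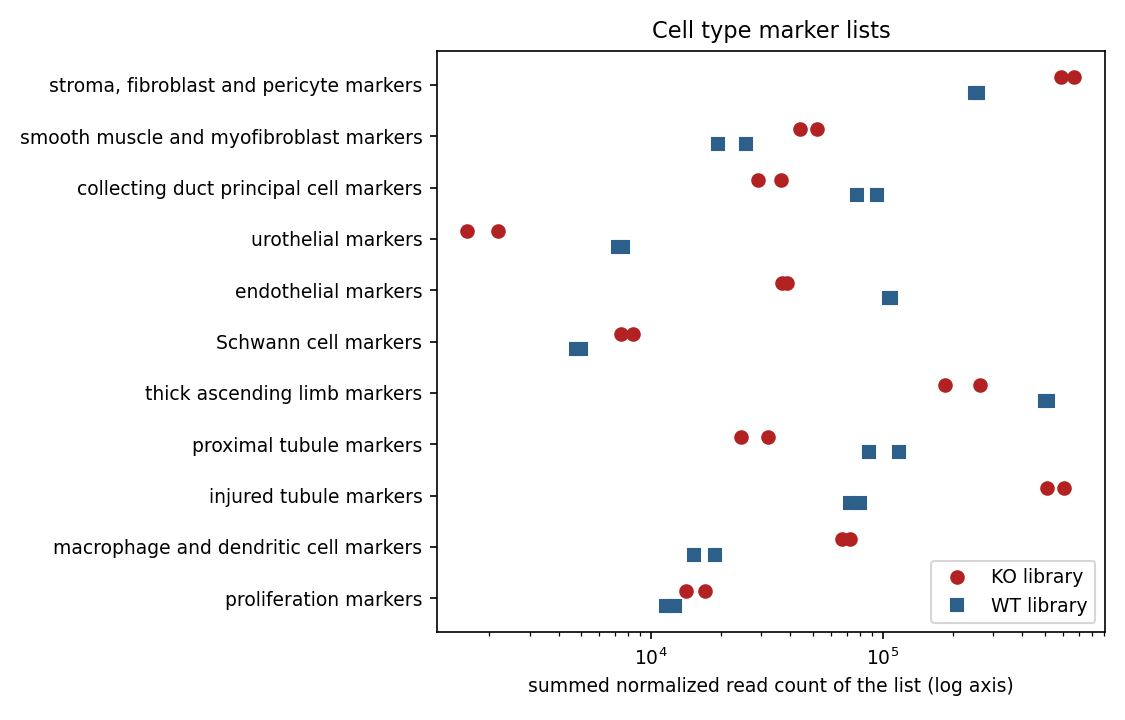
Summed normalized read count (horizontal log axis) of each cell type marker list in KO-labelled medullas (red circles, upper) and the WT-labelled medullas (blue squares, lower). The KO-labelled sums lie above for stroma (585402 to 670116 in KO-labelled against 249851 to 257762 in WT-labelled medullas) and below for endothelium (36895 to 38473 in KO-labelled against 106270 to 108802 in WT-labelled medullas).

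Likeness to single members was measured as the Euclidean distance between the 4 log2 values, each centred on the gene's own mean, over the 14217 other tested genes with a mean of at least 50. With 4 libraries many genes come close, so these are descriptions. Close to Gli1 were Cenpi (distance 0.0193) and Ccdc18 (0.0353). Cenpi had 202 and 273 in KO-labelled against 211 and 168 in WT-labelled medullas, and like Gli1 it was higher in KO replicate 2 than in KO replicate 1 and lower in WT replicate 2 than in WT replicate 1. Nearest to Shh were Med21 (0.019), Col18a1 (0.0275) and Pdcd7 (0.0283), and Med21 had 1140 and 1133 in KO-labelled against 831 and 943 in WT-labelled medullas.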

How the data were processed

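RNA came from the medullas of 2 KO and 2 WT animals, per the labels' protocols, and an outside company sequenced it. The values are signal values: gene read counts that the authors divided by 1 size factor per library and deposited as normalized counts. This was read from the values, 100% of which were whole within 0.001 after division by 1 step per column. The submitters' processing notes list DESeq2 (2.11.40.7), featureCounts (2.0.1), HISAT2 (2.2.1) and fastp (0.20.1), and the builds mm10 and GRCm38. Neither the annotation nor the strand setting is given in the sources used here, so reads of overlapping or antisense genes may be shared. Besides the overlaps given above, Shh shares 361 exon bases with Gm26894, Gli3 188 with Gm6556 and Hhip 175 with Gm27820, all on the opposite strand.

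Entrez IDs were matched to RefSeq symbols (25275 of 27179). Differences were tested two-sided with limma (3.58.1, R 4.3.3), fitting log2(value + 1) with a trended variance, across 16253 genes (mean normalized count 10 or more), adjusted by Benjamini-Hochberg over all of them at 0.05; 2 residual degrees of freedom became 6.96 after pooling. The tests were first tried on simulated data in which few genes changed and every gene had the same dispersion (spread beyond counting error). Here 51.2% of tested genes were called, so that run does not bear on these calls. Alternatives were pseudocounts of 0.5 and 5, no filter or a mean of at least 50, TMM and quantile normalization, no or a robust variance trend, edgeR 4.0.16 and DESeq2 1.42.0 on the recovered reads, the replicate number as a block, and leaving out each library, where the remaining library of that group takes its spread from the other one. Replicates differed by far more than sampling noise (chi-square per degree of freedom 16.9 for KO and 22.3 for WT), so none was a copy.

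The members were given, and the members and lists were chosen with earlier results of these data known. The named genes were the 9 members, Actr3, any gene of the pathway lists, the first 5 of each cell type list, and the 3 genes nearest to Shh and to Gli1. Arhgap9, Rhebl1, Col3a1, Rgs5, Fbln5 and Spp1 were named after their values were seen, and the other overlapping genes were named from the annotation. Some genes that this rule names are not reported here. No p was adjusted over a list alone. Read counts carry no molecular identifiers, so their depth covers counting error only.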

Additional observations from a re-analysis of the deposited data

How the results depend on the processing

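Ptch1, Gli2 and Gli3 kept their direction and their call under all 15 alternatives, and Shh, Gli1 and Hhip were called under none of them. Ihh lost its call in 6, Dhh in 2 and Smo in 1, with no reversal in any member. With no variance trend, 2 members were called higher in place of 4 (Ihh and Smo were lost). With 1 library left out, members called lower numbered 1 to 2, the count of 1 coming without WT replicate 2 and without KO replicate 1, where Dhh was lost. Counts over all genes, and over the 74 other tested pathway genes, stayed within 1.5 times under the alternatives run. The 35 called pathway genes gave 523 values under the alternatives, of which 469 kept the call and 54 (10.3%) lost it, with no reversal. The 39 that were not called gave 584, of which 4 gained a call. The median of all genes moved by under 0.1 under each scaling. The replicate block gave 4 members higher and 2 lower, and 3810 genes higher and 3619 lower against 4277 and 4051; among the pathway genes it ended the calls of Gpc3 and Prkacb. Same-numbered libraries did not deviate together (r = -0.056 across genes), so the numbers were not taken to pair the samples. Counting error alone would give log2 SEs of 0.131 for Shh, 0.154 for Dhh and 0.139 for Hhip, below the fitted 0.208, 0.251 and 0.292.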
